A study of Arabidopsis thaliana with 24 samples.

Results

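Mitotic cyclins and B-type cyclin-dependent kinases (CDKs) were followed as 10 genes in root RNA of Arabidopsis thaliana, out of 32833 genes counted. They were listed by locus identifier: CDKB1;1 (AT3G54180), CDKB1;2 (AT2G38620), CDKB2;1 (AT1G76540), CDKB2;2 (AT1G20930), CYCB1;1 (AT4G37490), CYCB1;2 (AT5G06150), CYCB1;3 (AT3G11520), CYCB2;1 (AT2G17620), CYCB2;2 (AT4G35620) and CYCA1;1 (AT1G44110). No cutoff on their values was used, but the list was made with earlier results of these data known. Seedlings of Col-0, the common laboratory wild type, grew on medium with 60 or 6 mM KNO3 and received 2.5 nM isoxaben, an inhibitor of cellulose synthesis, or mock treatment. Long-term seedlings grew on the treatment medium throughout, whereas shift seedlings were raised on mesh and transferred on day 5 to isoxaben or mock medium of unchanged KNO3. Whole roots were collected 6 days after stratification in both designs. The 8 groups were long-term isoxaben and long-term mock at 60 mM, long-term isoxaben and long-term mock at 6 mM, and the same 4 combinations after the shift, with 3 libraries each. The groups share the Col-0 background, with no allele or transgene named in the labels, and the day of harvest, and they differ in KNO3, isoxaben and the design. Nothing in the labels says that the libraries of a group came from separate cultures, and the p-values then measure the spread between these libraries, which may be technical.

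Plant cells enter mitosis when a CDK binds a mitotic cyclin and phosphorylates proteins of the nucleus, spindle and division plate. B-type CDKs are found in plants and, unlike the constitutive CDKA;1, are made in a cell-cycle-dependent way: CDKB1 transcripts accumulate from S phase to G2 and mitosis, CDKB2 transcripts around G2 and mitosis. B-type cyclins and CYCA1;1 are made around the G2 to M transition and are then degraded through the anaphase-promoting complex. In roots their mRNAs mark dividing cells of the apical meristem and of lateral root primordia. MYB3R transcription factors control many G2 and M phase genes through the mitosis-specific activator (MSA) element, which has AACGG as its core.

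Library totals were 18902538 to 20519913 counts, and the 10 genes had between 74 and 1172 counts per library, so all 10 passed the filter on low counts. Abundance is given as CPM, the usual scaling of counts by the effective library size, and calls were made where edgeR's quasi-likelihood test over 20546 genes gave an adjusted p under 0.05. The root label was checked with markers of the root meristem, whose 8 genes summed to 231 to 291 CPM per library, and with 5 of the shoot apex and young leaf. WUS, CLV3 and STM, which define the shoot stem cell domain, reached at most 0.167, 0.501 and 0.389 CPM in any library. FIL, a leaf identity gene, had 0 counts in 2 of the 3 long-term isoxaben libraries at 60 mM and 51 counts (2.84 CPM) in replicate 2. It had 0 counts in the long-term mock libraries at 60 mM. Replicate 2 also had the highest summed level of 10 photosynthesis genes in its group, 464 CPM against 103 and 151 CPM in replicates 1 and 3, while the long-term mock libraries at 60 mM had 347 to 522 CPM. The highest counts of WUS, CLV3 and STM were in the same library. KNAT1, a shoot apex homeobox gene and the only one of the 5 to pass the filter on low counts, was detected in every library and fell in long-term isoxaben at 60 mM, with 3.02, 5.84 and 3.91 CPM in isoxaben, against 8.94, 7.03 and 7.34 CPM in mock (log2 fold change -0.87, adjusted p 0.00124, edgeR). Its part in the values of the 10 genes was not tested. The main results that use replicate 2 are given with and without it.

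Per kilobase of exon, so that genes can be compared, CDKB2;1 was the most abundant of the 10, with a mean of 35.4 ± 4.82 CPM per kb (SD over 24 libraries). CYCB1;2 averaged 19.3 ± 1.92, CDKB1;1 17.0 ± 1.18 and CDKB2;2 16.5 ± 1.86 CPM per kb. The remaining genes lay lower, from CYCB1;3 at 11.6 ± 1.36 to CYCB2;1 at 3.15 ± 0.47 CPM per kb. For 9 of the 10 genes the lowest of the 8 group means was that of long-term isoxaben at 60 mM, and the exception, CDKB1;1, was lowest in shift mock libraries at 6 mM. Between the highest and lowest group means the ratio was 1.14 for CDKB1;1 and 1.62 for CYCB2;2, and those of the other 8 genes lay between. Most neighbouring groups in these orders had overlapping libraries. Long-term isoxaben at 60 mM was separated from the next group for both CDKB2 genes, CYCB1;2 and CYCA1;1. The shares of all genes that were lowest or separated in that group were not counted. Against long-term mock, 15.8% of all genes tested were called lower there, so these orders are given as a description of the 10 genes.

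**Figure D1:**
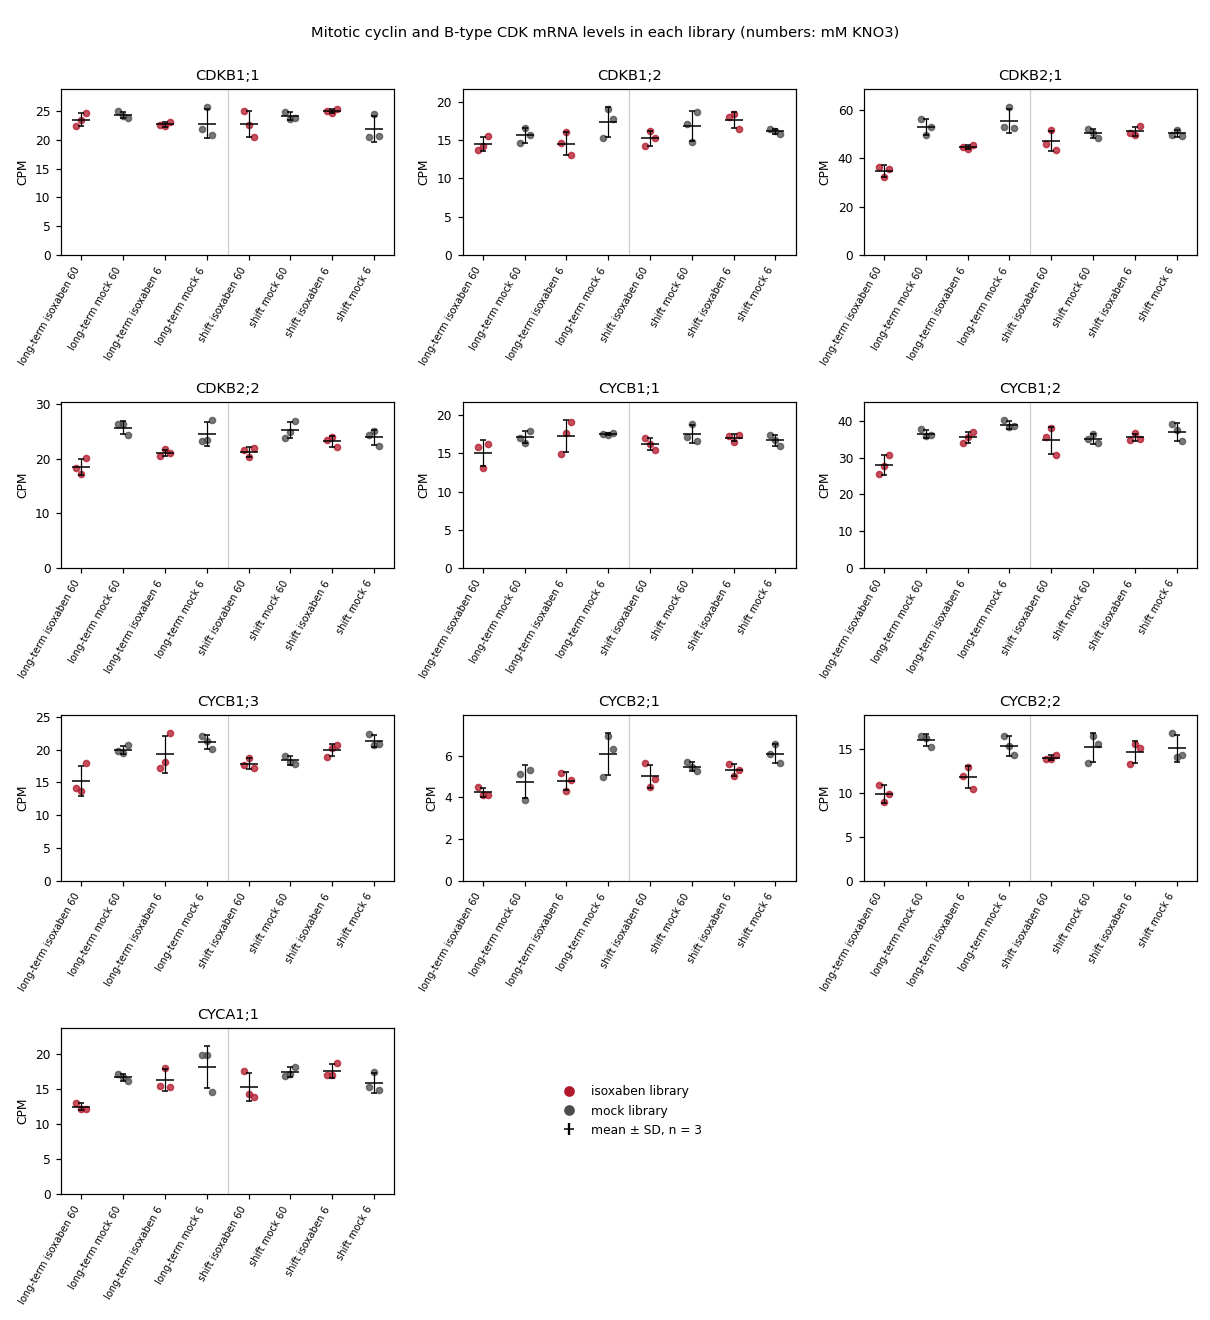
CPM of each of the 10 genes (y axis, from 0) in the 3 libraries of each group (x axis, with mM KNO3 as numbers), red for isoxaben and grey for mock, with mean and SD in black. CDKB2;1 sits between 32.2 and 36.6 CPM in long-term isoxaben libraries at 60 mM, below the 49.7 to 56.4 CPM of long-term mock, while CDKB1;1 shows overlapping values.

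Before the responses, the 300 bases upstream of each annotated gene start are described, because the MSA core is the element most often tied to G2 and M phase expression. AACGG, searched on both strands (CCGTT on the gene's own strand), was present in the windows of 7 of the 10 genes and occurred at least 2 times in 6, which were the 6 cyclin genes. Of 27443 such windows in the annotation, 23.4% held at least 1 AACGG and 4.53% at least 2. CDKB2;2 had 1 match, and the windows of the other 3 kinase genes had none. An E2F site, TTTCCCGC, was in none of the 10 windows and in 0.689% of all windows. The motif CTTNNNNNNNAAG, bound by the DNA damage regulator SOG1, was in the windows of CDKB1;2 and CYCB2;1 and in 11.4% of all windows. A match is only a string of letters, and no match says only that these letters are absent from this window. Shown are the cyclin with the largest fall under long-term isoxaben at 60 mM KNO3 (CYCB2;2, chr4:16901296-16901595, plus strand), the cyclin with the most matches (CYCB1;2, chr5:1861704-1862003, minus strand), a cyclin that was not called (CYCB1;1, chr4:17624309-17624608, minus strand) and the kinase with a match (CDKB2;2, chr1:7294747-7295046, minus strand), from RefSeq's TAIR10.1, read 5′ to 3′ towards the gene with AACGG or CCGTT in capitals.
CYCB2;2: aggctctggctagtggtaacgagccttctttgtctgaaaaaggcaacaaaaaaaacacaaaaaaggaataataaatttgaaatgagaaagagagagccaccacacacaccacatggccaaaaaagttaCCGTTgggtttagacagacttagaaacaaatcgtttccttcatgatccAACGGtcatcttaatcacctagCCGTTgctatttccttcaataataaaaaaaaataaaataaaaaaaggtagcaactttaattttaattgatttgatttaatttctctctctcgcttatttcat
CYCB1;2: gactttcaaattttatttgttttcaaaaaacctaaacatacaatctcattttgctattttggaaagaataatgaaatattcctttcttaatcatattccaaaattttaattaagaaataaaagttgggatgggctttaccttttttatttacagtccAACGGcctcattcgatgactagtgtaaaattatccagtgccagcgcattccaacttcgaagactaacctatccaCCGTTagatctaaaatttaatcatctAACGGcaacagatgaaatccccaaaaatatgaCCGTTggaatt
CYCB1;1: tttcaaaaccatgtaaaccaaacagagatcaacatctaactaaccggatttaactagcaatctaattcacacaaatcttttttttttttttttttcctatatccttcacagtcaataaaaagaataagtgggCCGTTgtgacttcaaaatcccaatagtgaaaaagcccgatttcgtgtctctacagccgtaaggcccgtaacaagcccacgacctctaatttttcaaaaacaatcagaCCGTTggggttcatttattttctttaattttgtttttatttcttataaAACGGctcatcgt
CDKB2;2: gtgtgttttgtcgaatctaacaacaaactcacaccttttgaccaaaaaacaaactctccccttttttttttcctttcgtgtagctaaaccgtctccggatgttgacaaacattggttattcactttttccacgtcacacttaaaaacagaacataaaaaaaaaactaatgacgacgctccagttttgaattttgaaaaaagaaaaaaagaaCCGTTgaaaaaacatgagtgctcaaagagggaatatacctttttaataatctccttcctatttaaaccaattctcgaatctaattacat
In the order shown, the match nearest to the gene start began 102, 11, 13 and 89 bases before it.

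Isoxaben given throughout growth at 60 mM KNO3 was the condition in which these genes differed most. Both CDKB2 genes and 4 cyclin genes, CYCB1;2, CYCB1;3, CYCB2;2 and CYCA1;1, fell, by 0.39 to 0.69 on the log2 scale. The remaining 4, both CDKB1 genes, CYCB1;1 and CYCB2;1, were not called, although all 10 estimates were negative. Called lower were thus 6 of 10, against 15.8% of all genes tested (31.9% in either direction), and none was called higher. The median log2 fold change of the 10 genes was -0.39, against 0.01 for all genes tested. Ranges of the isoxaben and mock libraries were apart in the lower direction for 7 of the 10, against 20.7% of all genes tested. Summed over the 10 genes, abundance was 176 ± 10.2 CPM in isoxaben and 230 ± 5.42 CPM in mock (SD, n = 3 each). Without isoxaben replicate 2, the median was -0.35, the sum of the other 2 isoxaben libraries averaged 181 CPM, and ranges were apart for 7 of the 10, against 26.3% of all genes. In whole roots, fewer cells of a type and less RNA per cell cannot be told apart.

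The other 3 isoxaben comparisons gave fewer calls. Long-term isoxaben at 6 mM lowered 2 of the 10 genes, against 1.79% of all genes (5.69% in either direction), and all 10 estimates were again negative, with a median log2 fold change of -0.19 against -0.01 for all genes. The summed abundance there was 208 ± 6.05 CPM in isoxaben and 238 ± 9.75 CPM in mock. After the shift at 60 mM 1 of the 10 was called lower, against 5.59% of all genes (12.9% in either direction), with a median of -0.11 against 0.00 for all genes. The sums were 210 ± 10.1 CPM in isoxaben and 226 ± 0.70 CPM in mock. After the shift at 6 mM none was called, against 0.949% of all genes, and DESeq2 called 0. For 1 gene the unadjusted p was under 0.05, against 9.91% of all genes (edgeR). Sums of the 10 there overlapped, at 227 ± 2.75 CPM in isoxaben and 225 ± 8.92 CPM in mock.

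**Figure D2:**
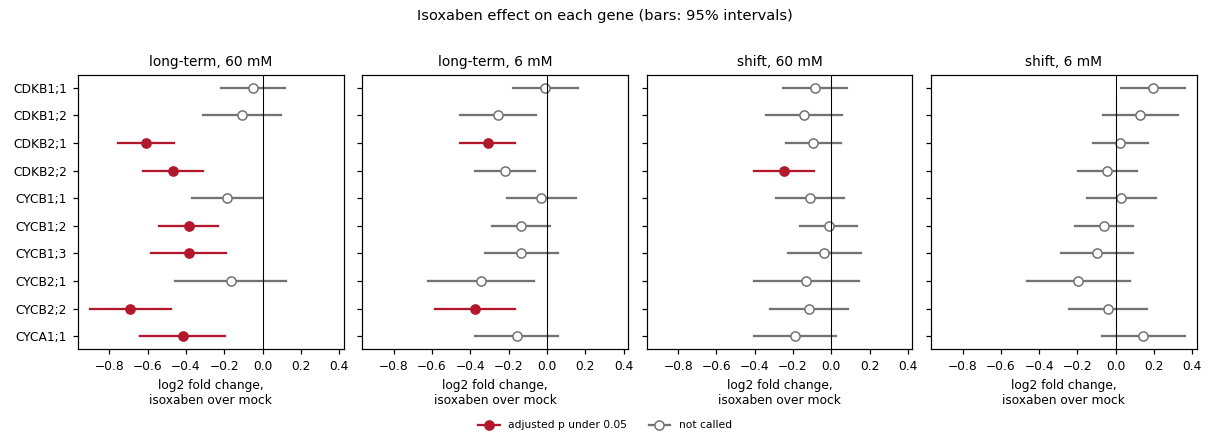
Log2 fold change of isoxaben over mock (x axis) with its 95% interval for each of the 10 genes (y axis) in the 4 isoxaben comparisons, filled red where called. Calls lie to the left of 0 and number 6 in long-term libraries at 60 mM, 2 at 6 mM, 1 in the shift at 60 mM and 0 in the shift at 6 mM.

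CDKB2;1 is a G2 and M phase kinase needed for a normal meristem. At 60 mM it had 36.6, 32.2 and 35.7 CPM in long-term isoxaben libraries, against 56.4, 49.7 and 53.1 CPM in long-term mock. Every isoxaben library lay below every mock library (log2 fold change -0.61 with an SE of 0.07, edgeR adjusted p 1.21e-07). At 6 mM the long-term values were 44.8, 44.1 and 45.8 CPM in isoxaben, against 52.9, 61.3 and 52.7 CPM in mock. These were also apart (log2 fold change -0.31 with an SE of 0.07, edgeR adjusted p 0.00564), but the call was not made without mock replicate 2 (adjusted p 0.0701, edgeR). After the shift it had 46.1, 51.7 and 43.7 CPM in isoxaben, against 52.1, 50.6 and 48.3 CPM in mock at 60 mM, and 50.7, 49.6 and 53.5 CPM in isoxaben, against 49.7, 52.0 and 49.4 CPM in mock at 6 mM. Both pairs of groups overlapped, and the 95% intervals of the log2 fold change were -0.24 to 0.05 at 60 mM and -0.12 to 0.17 at 6 mM.

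Its paralogue CDKB2;2 had 18.29, 17.24 and 20.14 CPM in long-term isoxaben libraries at 60 mM, against 26.42, 26.30 and 24.27 CPM in long-term mock. The groups did not overlap (log2 fold change -0.47 with an SE of 0.08, edgeR adjusted p 2.19e-05). At 6 mM it had 20.5, 21.7 and 21.0 CPM in long-term isoxaben, against 23.2, 23.4 and 27.1 CPM in long-term mock, which were apart but not called (log2 fold change -0.22, 95% interval -0.38 to -0.06, adjusted p 0.0985, edgeR). It was the gene called after the shift at 60 mM, with 21.6, 20.3 and 22.0 CPM in isoxaben, against 23.9, 25.0 and 26.9 CPM in mock (log2 fold change -0.25 with an SE of 0.08, edgeR adjusted p 0.0278). The call was lost in the fit of these groups alone (adjusted p 0.0837), with library totals as the scaling (0.0671), and without mock replicate 2 or 3 or isoxaben replicate 1 or 2 (0.0502 to 0.152, edgeR). After the shift at 6 mM the values overlapped, at 23.5, 24.0 and 22.1 CPM in isoxaben, against 24.3, 25.1 and 22.4 CPM in mock.

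CDKB1;1 acts at the G2 to M transition and in divisions of the stomatal lineage. It had 22.4, 23.4 and 24.7 CPM in long-term isoxaben libraries at 60 mM, against 25.0, 24.1 and 23.9 CPM in long-term mock. The groups overlapped, and the 95% interval of the log2 fold change, -0.22 to 0.12, leaves out a fall as large as the estimate for either CDKB2 gene. In long-term libraries at 6 mM it had 22.6, 22.4 and 23.2 CPM in isoxaben, against 22.0, 25.7 and 20.8 CPM in mock, again overlapping. The shift values at 60 mM overlapped as well, with 25.1, 22.6 and 20.6 CPM in isoxaben, against 24.9, 23.6 and 23.8 CPM in mock. After the shift at 6 mM this gene had the unadjusted p under 0.05 counted above, with 25.0, 24.6 and 25.3 CPM in isoxaben, against 20.5, 24.5 and 20.7 CPM in mock. The isoxaben libraries lay above the mock libraries but the difference was not called (log2 fold change 0.19, 95% interval 0.03 to 0.36, adjusted p 0.408, edgeR).

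For CDKB1;2, the second B1 kinase gene, long-term libraries at 60 mM had 13.8, 14.2 and 15.5 CPM in isoxaben, against 14.7, 16.6 and 15.6 CPM in mock. They overlapped, with a 95% interval of the log2 fold change of -0.31 to 0.09. At 6 mM the long-term values were 14.6, 16.0 and 13.1 CPM in isoxaben, against 15.3, 19.1 and 17.7 CPM in mock, overlapping and not called (log2 fold change -0.25, 95% interval -0.45 to -0.05, adjusted p 0.148, edgeR). Shift groups overlapped too, with 14.2 to 16.2 CPM in isoxaben and 14.7 to 18.6 CPM in mock at 60 mM, and with 16.5 to 18.4 CPM in isoxaben and 15.8 to 16.5 CPM in mock at 6 mM. Each of the 4 kinase genes overlaps a gene on the opposite strand, over 3.22% to 18.3% of its exon bases, and the strand setting of the counting is not given in the sources used here. The longest overlap is that of this gene with AT2G38630, which had 13.8 ± 1.09 CPM in long-term isoxaben and 16.4 ± 0.88 CPM in long-term mock at 60 mM (adjusted p 0.0522, edgeR). The partners of both CDKB2 genes did not pass the filter on low counts.

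The ratio of summed CDKB2 to summed CDKB1 abundance does not depend on the scaling of a library. It was 1.52, 1.31 and 1.39 in long-term isoxaben libraries at 60 mM, against 2.09, 1.87 and 1.96 in the matching mock libraries. The groups did not overlap, with or without replicate 2 of isoxaben. At 6 mM the long-term ratio was 1.77 ± 0.07 in isoxaben and 2.00 ± 0.10 in mock (SD, n = 3 each), again without overlap. In the shift it was 1.80 ± 0.07 in isoxaben and 1.85 ± 0.11 in mock at 60 mM, which overlapped, and 1.75 ± 0.05 in isoxaben and 1.96 ± 0.06 in mock at 6 mM, which did not. With 3 libraries against 3, an exact two-sided permutation test of the ratio cannot give a p under 0.1. It gave 0.1 in both long-term comparisons and in the shift at 6 mM, and 0.6 in the shift at 60 mM. These ratios are therefore given as a description.

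CYCB1;2, the most abundant cyclin gene of the set, had 25.4, 27.8 and 30.7 CPM in long-term isoxaben libraries at 60 mM, against 37.8, 35.8 and 36.0 CPM in long-term mock. All isoxaben values were below the mock range (log2 fold change -0.39 with an SE of 0.07, edgeR adjusted p 0.000172). Long-term values at 6 mM were apart by a smaller step, with 34.0, 35.6 and 37.0 CPM in isoxaben, against 40.2, 38.2 and 38.5 CPM in mock, and were not called (log2 fold change -0.13, 95% interval -0.29 to 0.02, adjusted p 0.399, edgeR). Shift groups overlapped at both KNO3 levels, with 35.5, 38.0 and 30.7 CPM in isoxaben, against 35.0, 36.3 and 33.9 CPM in mock at 60 mM. Its counts carry some uncertainty, since 184 of its 1630 exon windows of 50 bases (11.3%) recur in CYCB1;5, which reached at most 2.96 CPM in any library.

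CYCB1;3 had 14.2, 13.7 and 17.9 CPM in long-term isoxaben libraries at 60 mM, against 19.8, 19.4 and 20.7 CPM in long-term mock, with no overlap (log2 fold change -0.39 with an SE of 0.09, edgeR adjusted p 0.00219). Long-term groups at 6 mM overlapped, with 17.25, 18.07 and 22.53 CPM in isoxaben, against 22.09, 21.28 and 20.05 CPM in mock. After the shift no change of this gene was called, and the groups at 60 mM overlapped. Its shift ranges at 6 mM were apart but adjoining, with 18.94, 20.30 and 20.64 CPM in isoxaben, against 22.42, 20.78 and 20.86 CPM in mock (log2 fold change -0.10, 95% interval -0.28 to 0.09, adjusted p 0.792, edgeR). The third B1 cyclin, CYCB1;1, is the widely used reporter of G2 and M phase cells and is also raised after DNA damage. It had 15.8, 13.1 and 16.2 CPM in long-term isoxaben at 60 mM, against 17.0, 16.4 and 18.0 CPM in long-term mock. Its ranges were apart but adjoining, and the change was not called (log2 fold change -0.19, 95% interval -0.37 to -0.00397, adjusted p 0.115, edgeR). At 6 mM it had 14.9, 17.7 and 19.1 CPM in long-term isoxaben, against 17.6, 17.5 and 17.7 CPM in long-term mock, which overlapped. After the shift its isoxaben and mock libraries overlapped at 60 and at 6 mM.

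CYCB2;2 had the largest fall of the 10 genes, with 10.9, 8.96 and 9.88 CPM in long-term isoxaben libraries at 60 mM, against 16.5, 16.3 and 15.3 CPM in long-term mock. The groups were apart (log2 fold change -0.69 with an SE of 0.10, edgeR adjusted p 5.17e-06). At 6 mM the long-term values were 12.0, 13.1 and 10.5 CPM in isoxaben, against 16.5, 15.4 and 14.3 CPM in mock, also apart (log2 fold change -0.37 with an SE of 0.10, edgeR adjusted p 0.0231). That call at 6 mM was lost without mock replicate 1 or 2 or isoxaben replicate 1 or 3 (adjusted p 0.0626 to 0.181, edgeR). After the shift the values overlapped, with 13.9, 13.9 and 14.4 CPM in isoxaben, against 13.4, 16.6 and 15.7 CPM in mock at 60 mM, and 13.3, 15.6 and 15.2 CPM in isoxaben, against 16.9, 14.1 and 14.4 CPM in mock at 6 mM. The second B2 cyclin, CYCB2;1, was the least abundant of the 10 and had 4.48, 4.12 and 4.12 CPM in long-term isoxaben at 60 mM, against 5.10, 3.88 and 5.31 CPM in long-term mock. These overlapped, and with 74 to 102 counts per library the 95% interval of its log2 fold change was wide, -0.46 to 0.12. In long-term libraries at 6 mM it had 5.19, 4.33 and 4.84 CPM in isoxaben, against 4.97, 6.95 and 6.31 CPM in mock, which overlapped and were not called although the estimate was larger than at 60 mM (log2 fold change -0.34, 95% interval -0.62 to -0.07, adjusted p 0.166, edgeR). Its shift ranges at 6 mM were apart but not called, with 5.62, 5.04 and 5.32 CPM in isoxaben, against 6.08, 6.55 and 5.66 CPM in mock (log2 fold change -0.20, 95% interval -0.47 to 0.07, adjusted p 0.683, edgeR).

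CYCA1;1 is an A-type cyclin of late S phase to mitosis. It had 13.1, 12.2 and 12.2 CPM in long-term isoxaben libraries at 60 mM, against 17.2, 16.7 and 16.1 CPM in long-term mock. The groups were apart (log2 fold change -0.42 with an SE of 0.11, edgeR adjusted p 0.00367). The long-term groups at 6 mM overlapped, with 15.4, 18.1 and 15.3 CPM in isoxaben, against 19.9, 19.9 and 14.6 CPM in mock. After the shift they overlapped as well, with 17.6, 14.3 and 13.9 CPM in isoxaben, against 16.8, 17.1 and 18.2 CPM in mock at 60 mM, and 17.0, 17.0 and 18.7 CPM in isoxaben, against 15.4, 17.5 and 14.9 CPM in mock at 6 mM.

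Without replicate 2 of long-term isoxaben at 60 mM, the library with FIL counts, the 6 calls of the long-term effect at 60 mM were all still made, with adjusted p of at most 0.0196 (edgeR). In the order given above, the log2 fold changes were then -0.56 and -0.42 for the CDKB2 kinases, -0.39 and -0.32 for the called B1 cyclins, -0.63 for the called B2 cyclin and -0.40 for the A-type cyclin. CYCB1;1 then had a log2 fold change of -0.10 (adjusted p 0.452, edgeR).

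Whether the long-term isoxaben effect differed between 60 and 6 mM KNO3 was tested as an interaction. None of the 10 genes was called, against 11.8% of all genes, and DESeq2 called 0. Of the 10, 4 had an unadjusted p under 0.05, against 23.4% of all genes (edgeR). CDKB2;1 came closest, with a log2 fold change lower by 0.30 at 60 mM (95% interval -0.50 to -0.09, adjusted p 0.0519, edgeR). It was called under median-of-ratios scaling (adjusted p 0.0490, edgeR) and in the fits without mock replicate 2 at 6 mM (adjusted p 0.0147), without mock replicate 2 at 60 mM (0.0360) and without isoxaben replicate 1 at 60 mM (0.0408). Without isoxaben replicate 3 at 60 mM, CYCB1;2 and CYCB1;3 were called (adjusted p 0.0396 and 0.0440, edgeR). Without isoxaben replicate 2 at 60 mM none was called, and the estimate for CDKB2;1 was -0.26 (adjusted p 0.114, edgeR). In the main test no difference between KNO3 levels passed the threshold, and the intervals do not show that the effects are equal.

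Long-term and shift isoxaben effects at 60 mM were compared by the interaction with exposure. The long-term effect was called the lower for 3 of the 10 genes, against 5.86% of all genes (11.5% in either direction). Of the 10 estimates 8 were negative, with a median of -0.22 against 0.01 for all genes. For CYCB2;2 the log2 fold change was -0.69 long-term and -0.12 after the shift, a difference of -0.57 (SE 0.14, adjusted p 0.00762, edgeR). CDKB2;1 had -0.61 long-term and -0.10 after the shift, a difference of -0.51 (SE 0.10, adjusted p 0.000826, edgeR). The third was CYCB1;2, at -0.39 long-term and -0.01 after the shift, a difference of -0.37 (SE 0.10, adjusted p 0.0185, edgeR). Without the isoxaben library with FIL counts these differences were -0.52, -0.47 and -0.38, all still called. The call of the B1 cyclin was lost in the fit of the groups compared (adjusted p 0.0618) and without mock replicate 1 or isoxaben replicate 1 of the long-term libraries or isoxaben replicate 2 of the shift libraries (0.0507 to 0.0740, edgeR). CYCB1;3 gained a call with library totals as the scaling (adjusted p 0.0437) and without isoxaben replicate 3 of the long-term libraries (0.0128, edgeR). Both CDKB1 genes had differences near 0, of 0.03 and 0.04, with 95% intervals of -0.20 to 0.27 and -0.25 to 0.32. Long-term and shift libraries also differ in the mesh and the transfer, and whether they were grown or sequenced together is not given in the sources used here.

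**Figure D3:**
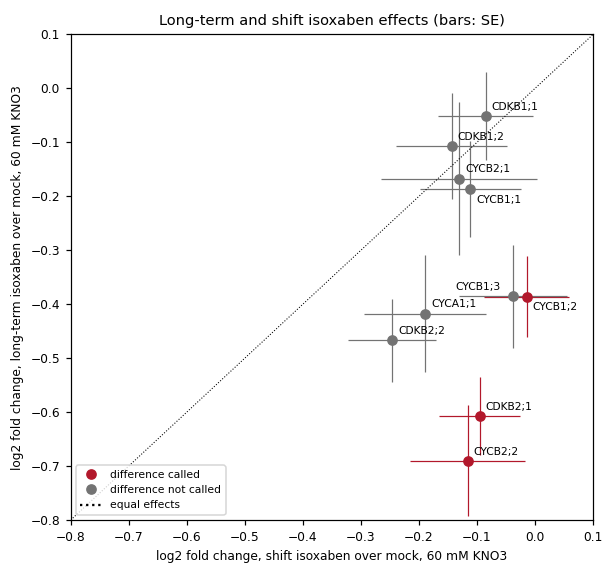
Log2 fold change of isoxaben over mock at 60 mM KNO3 in long-term libraries (y axis) against shift libraries (x axis), with SE bars and a dotted line of equal effects, red where the difference was called. The 3 red genes lie below the line at -0.69, -0.61 and -0.39 long-term, and the CDKB1 genes lie on it within their bars.

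In mock libraries KNO3 was not accompanied by called changes of these genes. Isoxaben libraries at 60 and 6 mM were not compared directly by a test. Summed over the 10 genes, long-term isoxaben libraries had 167 to 187 CPM at 60 mM and 201 to 212 CPM at 6 mM. Shift isoxaben libraries had 198 to 217 CPM at 60 mM and 224 to 230 CPM at 6 mM. In long-term mock libraries none of the 10 was called for 60 against 6 mM, against 6.77% of all genes, and DESeq2 called 0. An unadjusted p under 0.05 was found for 1 gene, against 19.2% of all genes (edgeR). This was CYCB2;1, with 5.10, 3.88 and 5.31 CPM at 60 mM, against 4.97, 6.95 and 6.31 CPM at 6 mM (log2 fold change -0.35, adjusted p 0.132, edgeR), and it was called without mock replicate 1 at 6 mM (adjusted p 0.0462). Long-term mock libraries were apart for CYCB1;2, with 35.8 to 37.8 CPM at 60 mM and 38.2 to 40.2 CPM at 6 mM (adjusted p 0.543, edgeR). In shift mock libraries none was called, against 8.20% of all genes, and DESeq2 called 0. CYCB1;3 alone had an unadjusted p under 0.05, against 20.6% of all genes (edgeR). Its shift mock libraries were apart, with 17.9 to 19.1 CPM at 60 mM and 20.8 to 22.4 CPM at 6 mM (adjusted p 0.162, edgeR). Shift against long-term mock, which differ in the mesh and the transfer and possibly in growth or sequencing, gave 0 calls at 60 mM, against 3.30% of all genes, and 0 at 6 mM, against 0.642%. These comparisons had 0 and 1 unadjusted p under 0.05, against 15.9% and 8.59% of all genes (edgeR), and DESeq2 called 0 in both. For the remaining interactions edgeR and DESeq2 called 0 of the 10 genes. Of all genes, 3.50% were called for isoxaben by KNO3 in the shift, 0.263% for isoxaben by exposure at 6 mM and 2.20% for isoxaben by KNO3 by exposure. In that order, 2, 3 and 1 of the 10 had an unadjusted p under 0.05, against 14.0%, 7.79% and 13.2% of all genes (edgeR). For isoxaben by exposure at 6 mM all 10 estimates were negative, with a median of -0.19.

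Other cell cycle genes were read from lists in the same tests, starting with the long-term isoxaben effect at 60 mM. There 15.8% of all genes were called lower and 31.9% in either direction. Of 13 further A- and B-type cyclins tested, 4 fell and 1 rose: CYCB1;4 had 17.5 ± 1.98 CPM in isoxaben and 28.7 ± 2.01 CPM in mock, and CYCA2;2 10.7 ± 0.68 and 17.6 ± 1.68 CPM in isoxaben and mock. CYCA2;1 rose, with 6.42 ± 0.80 CPM in isoxaben and 3.91 ± 0.17 CPM in mock (adjusted p 0.000117, edgeR). Of 18 genes of mitosis and cytokinesis, 8 fell and none rose, and the median log2 fold change was -0.21. Without isoxaben replicate 2 these were 5 of 18 and -0.17, and without mock replicate 1 also 5 of 18 fell. MAD2, a spindle checkpoint protein, had 13.7 ± 1.31 CPM in isoxaben and 19.9 ± 1.58 CPM in mock, and the checkpoint kinase homologue BUBR1 12.0 ± 2.73 and 16.3 ± 1.31 CPM in isoxaben and mock. Among 12 S phase genes 2 fell, a share near that of all genes called lower. They were RNR1 and TSO2, the large and a small subunit of ribonucleotide reductase, which fell by 0.34 and 0.23 on the log2 scale. Of the 12 genes, 1 rose and 1 fell when isoxaben replicate 2 was left out. Without replicate 2 of isoxaben, TSO2 was the only gene named here that lost its call (adjusted p 0.103, edgeR), which it also lost in the fit of these groups alone and without isoxaben replicate 1 or mock replicate 1 or 3 (0.0546 to 0.122, edgeR). The 11 regulators of cell cycle transcription (MYB3R, E2F, DP, RBR and related factors) gave 0 calls in the main edgeR fit, and their median log2 fold change was -0.03. Without isoxaben replicate 2, 1 of them rose, and without mock replicate 3, 1 fell. The main fit also gave 0 calls for 5 regulators of the anaphase-promoting complex and of CDK phosphorylation, whose median was -0.19. Without isoxaben replicate 1, 1 of these 5 fell. In long-term isoxaben at 6 mM, against 1.79% of all genes, 3 of 13 cyclins (CYCB1;4 and CYCA2;2 among them) and 1 of 18 mitosis genes (MAD2) fell. After the shift at 60 mM, against 5.59% of all genes, 2 of the 13 (CYCA2;2 and CYCB1;4) and 0 of the 18 fell. After the shift at 6 mM neither list had a call. The 6 mM calls of MAD2 and CYCA2;2 were lost without some single libraries (adjusted p 0.0604 to 0.170, edgeR). So were both shift calls (0.0556 to 0.107, edgeR).

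Of 10 D-type cyclin and CDKA genes tested, 2 rose and 1 fell in long-term isoxaben at 60 mM, a share near the 31.9% of all genes called in either direction. Without isoxaben replicate 2, 2 rose and 2 fell. CYCD6;1, a cyclin of formative divisions in the root, had 5.38 ± 0.80 CPM in isoxaben and 1.96 ± 0.30 CPM in mock (log2 fold change 1.46, adjusted p 4.05e-06, edgeR). CYCD1;1 had 11.8 ± 2.09 CPM in isoxaben and 24.4 ± 1.22 CPM in mock (log2 fold change -1.05, adjusted p 1.3e-07, edgeR). After the shift at 60 mM, CYCD6;1 fell, with 1.93 ± 0.50 CPM in isoxaben and 3.56 ± 0.43 CPM in mock (log2 fold change -0.88, adjusted p 0.00608, edgeR), a call lost without isoxaben replicate 2 (adjusted p 0.0523, edgeR). Of 9 DNA damage response genes tested, 2 rose and 1 fell in long-term isoxaben at 60 mM, the last being the CDK inhibitor gene SMR5 with 0.339 ± 0.02 CPM in isoxaben and 1.13 ± 0.27 CPM in mock. This share is also near the 31.9% of all genes. The rises were those of GMI1 and PARP2, both lost without mock replicate 1 (adjusted p 0.108 and 0.0519, edgeR). GMI1 lost its call in 7 of 12 alternatives (adjusted p 0.0589 to 0.202), DESeq2 included, and PARP2 also without mock replicate 3 or isoxaben replicate 1 (0.0701 and 0.0876, edgeR).

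**Figure D4:**
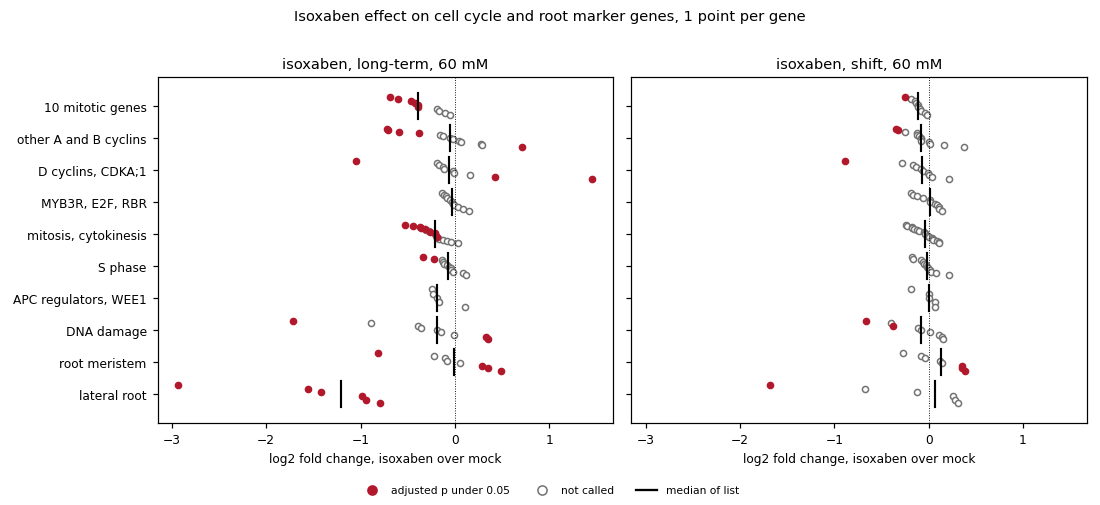
Log2 fold change of isoxaben over mock at 60 mM KNO3 (x axis), long-term on the left and shift on the right, for each gene of 10 lists (y axis), red where called, with the list median as a black bar. The 10 mitotic genes have a median of -0.39 long-term and -0.11 after the shift, and the 6 lateral root genes -1.20 and 0.06.

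Markers of the places where root cells divide did not move together. All 6 lateral root initiation markers fell in long-term isoxaben at 60 mM, against 15.8% of all genes called lower. Their sums were 10.6, 13.1 and 11.0 CPM in isoxaben, against 24.1, 22.0 and 23.9 CPM in mock. Their median log2 fold change was -1.20, and -1.29 without isoxaben replicate 2, with all 6 still called. LBD29, a transcription factor of lateral root initiation, had 0.808 ± 0.24 CPM in isoxaben and 2.16 ± 0.34 CPM in mock. At 6 mM the lateral root sums were 17.9 ± 0.68 CPM in long-term isoxaben and 23.6 ± 2.34 CPM in long-term mock. Of the 6 genes 1 was called lower, LBD29, against 1.79% of all genes, and the call was lost without mock replicate 1 or 2 or any one of the isoxaben libraries (adjusted p 0.0669 to 0.285, edgeR) and with DESeq2 (0.0508). After the shift at 60 mM the sums were 24.3 ± 0.59 CPM in isoxaben and 22.1 ± 2.11 CPM in mock. Of the 6 genes 1 was called lower, GATA23, against 5.59% of all genes, a call lost without mock replicate 2 (adjusted p 0.0509, edgeR). It had 0.324 ± 0.07 CPM in isoxaben and 1.06 ± 0.44 CPM in mock. The 8 root meristem markers summed to 254 to 289 CPM in long-term isoxaben and 247 to 261 CPM in long-term mock at 60 mM, which overlapped. Among them 3 rose and 1 fell, against 31.9% of all genes called in either direction. Without isoxaben replicate 2, 3 rose and 2 fell. PLT2, an AP2-type regulator of the root stem cell niche, had 15.6 ± 0.46 CPM in isoxaben and 11.1 ± 1.45 CPM in mock. WOX5, expressed in the quiescent centre, had 1.09 ± 0.28 and 1.91 ± 0.49 CPM in isoxaben and mock. The WOX5 call was lost without mock replicate 1 or isoxaben replicate 3 (adjusted p 0.0952 and 0.0645, edgeR). After the shift at 60 mM 3 of the 8 rose and 0 fell, against 12.9% of all genes in either direction. PLT3 had 77.9 ± 4.66 CPM in isoxaben and 59.8 ± 7.9 CPM in mock there (adjusted p 0.00263, edgeR). PLT2 had 14.4 ± 0.49 and 11.2 ± 1.84 CPM in isoxaben and mock (adjusted p 0.0402, edgeR). Its shift call was lost in the fit of these groups alone and without some single libraries (0.0664 to 0.255, edgeR). Of the photosynthesis genes, 4 of 10 were called lower in long-term isoxaben at 60 mM, against 15.8% of all genes, with a median log2 fold change of -0.62. The count was 0 in the fit of these groups alone and 2 without mock replicate 2 or 3 or isoxaben replicate 1 or 3. Without isoxaben replicate 2 these were 6 of 10 and -1.35. The call of LHCB1.3 was lost in 5 of 12 alternatives (adjusted p 0.0584 to 0.255, edgeR), and that of PSAD1 in the fit of these groups alone (0.0728, edgeR). The part of the lateral root, root meristem and photosynthesis markers in the values of the 10 mitotic genes was not tested.

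**Figure D5:**
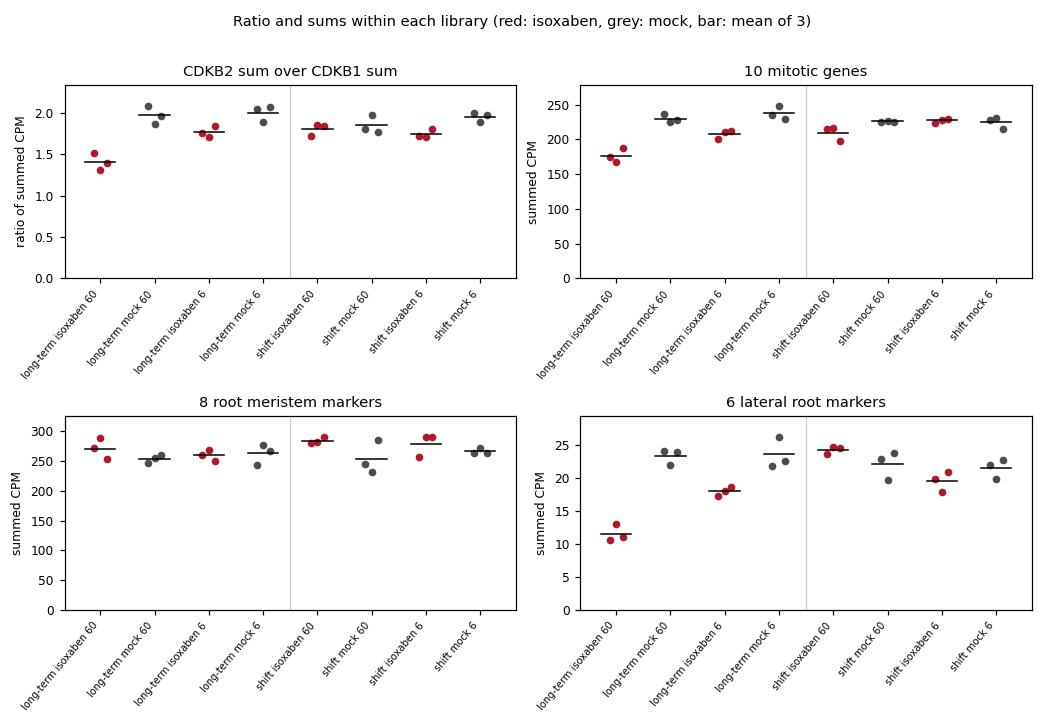
Ratio of CDKB2 to CDKB1 summed CPM and summed CPM of the 10 mitotic genes, 8 root meristem markers and 6 lateral root markers (y axes, from 0) in each library by group (x axis, with mM KNO3 as numbers), red for isoxaben and grey for mock, with the mean of 3 as a bar. In long-term libraries at 60 mM the ratio is 1.31 to 1.52 in isoxaben and 1.87 to 2.09 in mock, and the lateral root sum 10.6 to 13.1 CPM in isoxaben and 22.0 to 24.1 CPM in mock.

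Across the 24 libraries, which include the group differences above, Pearson's r between the log2 CPM of the 10 genes ran from -0.02 to 0.86 over 45 pairs, with a median of 0.52. With the mean of the other 9 genes, r was 0.92 for CDKB2;1, the highest of the 10, and 0.15 for CDKB1;1, the lowest. Without isoxaben replicate 2 of the long-term libraries at 60 mM, the median over pairs was 0.42, and these values were 0.89 and 0.20. The non-member genes most like the mean standardised pattern of the 10 among 15446 candidates were MAP65-4, which encodes a spindle microtubule-bundling protein (r = 0.938), AT5G44040 (0.934), AT2G40480 (0.928), LBD4 (0.921), CYCB1;4 (0.920), AT4G02850 (0.919), the spindle kinesin gene ATK5 (0.918), AT3G47980 (0.911), AT3G29630 (0.911) and NCRK (0.899). MAP65-4 had 9.73 ± 1.3 CPM in long-term isoxaben and 18.9 ± 1.65 CPM in long-term mock at 60 mM. These are descriptions over libraries that share group, scaling and depth. Without isoxaben replicate 2 of the long-term libraries at 60 mM, 7 of these 10 genes were again among the first 10. By Spearman's rho over all 24 libraries only 2 were.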

How the data were processed

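Per the labels' protocols, polyadenylated RNA from 24 root samples was read by DNBSEQ. The authors deposited raw counts per gene, and the submitters' processing notes name STAR 2.7.9a, DESeq2 1.32.0 and build TAIR10; the counter, annotation and strand setting are not given in the sources used here. A second table of normalised counts was not used. Groups and replicate numbers came from sample titles. In R 4.3.3, edgeR 4.0.16 (filterByExpr, TMM factors 0.939 to 1.04, robust quasi-likelihood F test) was fitted once to all 24 libraries. The fit covered the 20546 genes that passed the filter, with 8 group means and 16 residual degrees of freedom. Each of 13 contrasts was adjusted by Benjamini-Hochberg over all genes tested. The common coefficient of variation between replicates was 7.66%. A prior count of 0.125 entered the log2 fold changes. Dividing their size by the square root of F gave an approximate SE, and 95% intervals follow from it. CPM is TMM-scaled. No pair of replicates agreed within counting noise. The fit was tested on simulated data.

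All 10 genes were named. From each other list, up to 2 called genes per direction with the largest log2 fold change and at least 1 CPM in a group could be named, and the 10 genes most like the 10 in pattern with at least 5 CPM. WUS, CLV3, STM, FIL and KNAT1 were added after their values were seen, as a check of the tissue, as were the 6-gene and 10-gene sums. The members and lists were chosen with earlier results of these data known. Gene models and upstream windows came from RefSeq's TAIR10.1, whose nuclear chromosomes are those of TAIR10. Alternatives were median-of-ratios scaling, library totals, no filter, DESeq2 1.42.0, the groups compared alone, the replicate number as a block, and leaving out each of the 24 libraries. Sums, ranges and correlations without replicate 2 of long-term isoxaben at 60 mM were added after seeing the data.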

Additional observations from a re-analysis of the deposited data

Results flagged for a closer look

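A test of the difference between the long-term and shift isoxaben effects at 60 mM KNO3 singled out 3 genes, all with the lower log2 fold change in long-term libraries. The difference was -0.57 for CYCB2;2, -0.51 for CDKB2;1 and -0.37 for CYCB1;2 on the log2 scale (adjusted p 0.00762, 0.000826 and 0.0185, edgeR). Of all genes tested, 5.86% were called lower in this test. In all 3 genes the 3 long-term isoxaben libraries lay below the 3 long-term mock libraries, as in 20.7% of all genes, whereas shift isoxaben and shift mock libraries overlapped. The 3 genes were picked by the test on these same libraries, so the ranges only describe them and are no further support.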

How the results depend on the processing

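The count of 6 genes called lower by long-term isoxaben at 60 mM KNO3 was 6 in each alternative run, including each fit without a library. Of 1970 log2 fold changes of the 10 genes under alternatives, 1946 kept their direction or, where not called, their side of the threshold, 15 lost a call, 9 gained one and 0 called values reversed; 62 uncalled values changed sign. The count of 1 in the shift at 60 mM was 0 with library totals alone and with only the groups compared, and 0 to 1 without single libraries. The long-term count at 6 mM was 0 to 2 without single libraries, and the KNO3 count in long-term mock 0 to 1. The long-term isoxaben by KNO3 count of 0 was 1 under median-of-ratios scaling and 0 to 2 without single libraries. Over all genes, the 54 calls of isoxaben by exposure at 6 mM were 119 with only the groups compared, 114 with DESeq2 and 18 to 66 without single libraries. Without single libraries the calls over all genes were 747 to 939 for long-term isoxaben at 6 mM, 105 to 149 for shift isoxaben at 6 mM, 887 to 1167 for KNO3 in long-term mock, 1031 to 1459 for KNO3 in shift mock, 280 to 598 for shift against long-term mock at 60 mM and 40 to 105 at 6 mM. The cause of these changes was not tested, beyond the smaller number of libraries. Same-numbered replicates did not deviate together over all genes (r from -0.12 to 0.13 over 24 pairs, 8 of which matched best with their own number). Whether they shared a culture or a sequencing run is not given in the sources used here. With the replicate block the counts of the 10 genes were unchanged in all 13 comparisons (6 in long-term isoxaben at 60 mM). The 3-way interaction uses all 8 groups, so it has no separate fit of the groups compared. A gene near 5 CPM, such as CYCB2;1 with 74 to 134 counts per library, has the widest intervals, which cover the spread between libraries as well as counting.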
